A study of Homo sapiens with 6 samples.

Results

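The genes described here are those of the human mitochondrial genome: every gene of the deposited table that lies on the mitochondrial chromosome, 17 of 24526 genes. They comprised 13 protein-coding genes, 2 rRNA genes and 2 tRNA genes, and each carried the same identifier and position as in GENCODE release 44 on GRCh38. Numbers of mRNAs below are numbers of protein-coding genes, not of separate RNA molecules. The GENCODE annotation holds 37 genes on this chromosome of 16569 bases, and the other 20, all of them tRNA genes, were not analysed here. Of the 17, 16 passed the filter on low counts and were tested. The tRNA gene MT-TF did not, with 0, 0 and 2 counts in neg.si and 3, 2 and 4 counts in RIPK4.si.

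RNA was sequenced from WM266.4 cells, an established human melanoma line, to ask what changes when the kinase RIPK4 is depleted. A group of 3 libraries came from cells transfected with a negative control siRNA (neg.si) and a group of 3 from cells transfected with an siRNA against RIPK4 (RIPK4.si), both taken 48 h after transfection. In such an experiment, a small duplex RNA guides the cell's own machinery to cleave a matching mRNA. The knockdown was transient, and the study's methods describe the 3 libraries of a group as biological replicates. Values of a group are listed in the order of replicates 1, 2 and 3. Counts summed over genes to 31688095, 30539087 and 30056850 in neg.si and to 28464057, 30751441 and 30772817 in RIPK4.si. RIPK4 itself had 2656, 2298 and 1739 counts in neg.si and 585, 482 and 670 counts in RIPK4.si, lower in each of the 3 knockdown libraries than in any control. Its log2 fold change, RIPK4.si over neg.si, was -1.90 (standard error 0.203, edgeR adjusted p = 0.0102). That adjusted p rose above 0.05, to at most 0.106, when neg.si replicate 2 or any RIPK4.si library was left out. All 7 melanocyte lineage markers were tested, from MLANA with 338 to 423 counts a library to TYR with 27048 to 44774. Of these, PMEL, TYR and DCT were lower in every RIPK4.si library than in any neg.si library, whereas the groups overlapped for TYRP1, with a log2 fold change of 0.36, MLANA at 0.062, MITF at 0.042 and SOX10 at -0.15. PMEL had 9671, 8365 and 7918 counts in neg.si and 3447, 3013 and 3703 counts in RIPK4.si, with a log2 fold change of -1.30 (edgeR adjusted p = 0.0111, and 0.00215 to 0.129 with a library left out). The log2 fold changes of TYR and DCT were -0.57 and -0.73, with adjusted p of 0.148 and 0.0854 from edgeR and 0.0417 and 0.00361 from DESeq2. Of the markers of other cells, keratinocyte KRT5 had at most 19 counts in a library, leukocyte LYZ 24 and endothelial PECAM1 31. Fibroblast markers were mixed, with at most 9 counts for COL1A1, 68 to 142 for PDGFRB and 14738 to 30486 for COL1A2.

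The mitochondrial genome is copied and transcribed inside the organelle by enzymes encoded in the nucleus. Each strand is read as a long precursor, from which tRNAs are cut out and the mRNAs and rRNAs between them are released. Its mRNAs encode core subunits of complexes I, III, IV and V of the respiratory chain, and its rRNAs build the organelle's own ribosome, whereas all remaining subunits are encoded in the nucleus.

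The genes are packed so closely that neighbours share bases, which matters for counting. Below are the stretches, on the plus strand of GRCh38 and read 5′ to 3′, where annotated mRNA genes overlap, with the shared bases in capitals. The first lies at chrM:8512-8587, the second at chrM:10745-10781 and the third at chrM:9192-9222.
MT-ATP8/MT-ATP6 overlap: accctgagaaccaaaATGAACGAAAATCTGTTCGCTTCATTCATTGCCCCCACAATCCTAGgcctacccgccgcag
MT-ND4L/MT-ND4 overlap: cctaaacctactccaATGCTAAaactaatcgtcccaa
MT-ATP6/MT-CO3 overlap: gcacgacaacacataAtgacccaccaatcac

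MT-ATP8 shared 46 of its 207 bases with MT-ATP6, MT-ND4L shared 7 of its 297 bases with MT-ND4, and MT-ATP6 and MT-CO3 shared 1 base. In each pair the start codon of the downstream gene falls at the start of the capitals. Read pairs that lie across such a junction cannot be assigned to either gene with certainty, and the values of these genes are uncertain to that extent. This concerns MT-ATP8 most, which has 161 unshared bases beside paired reads of 100 bases. How many of its read pairs were lost or assigned to MT-ATP6 was not tested. The counting also ignored strand. Of the 13 mRNA genes, 12 lie on the plus strand and MT-ND6 on the minus strand, so for MT-ND6 and for MT-TP, also on the minus strand, reads of the gene and of the opposite strand cannot be told apart.

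The reading frames also differ in how they end, and the last 24 bases of 6 of them are shown because some lack a complete stop codon. Capitals mark the last codon, or the part of it that the genome encodes. All are read 5′ to 3′ on the gene's own strand, which is minus for MT-ND6 and plus for the others. They lie at chrM:4239-4262, chrM:7422-7445, chrM:8246-8269, chrM:12114-12137, chrM:14149-14172 and chrM:15864-15887, in the order given.
MT-ND1 3 prime end: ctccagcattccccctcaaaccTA
MT-CO1 3 prime end: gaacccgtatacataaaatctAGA
MT-CO2 3 prime end: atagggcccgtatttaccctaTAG
MT-ND4 3 prime end: acatcattaccgggttttcctctT
MT-ND6 3 prime end: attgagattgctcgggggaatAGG
MT-CYB 3 prime end: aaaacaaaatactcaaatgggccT

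In 7 of the 13 mRNA genes the last codon was complete, and in 6 the genome encoded only T (5 genes) or TA (MT-ND1), the rest of the stop codon being added as A after transcription. Log2 fold changes ran from -0.065 to 0.52 (median -0.0051) among the 7 genes with a complete last codon and from -0.022 to 0.32 (median 0.061) among the 6 without. Both classes spanned 0, and mean levels per length overlapped as well, at 922 to 25999 CPM per kb in the first and 1784 to 15171 CPM per kb in the second.

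Mitochondrial transcripts took a large and variable share of each library. The share of counts on the 17 genes was 11.1%, 12.8% and 10.8% in neg.si and 9.61%, 13.4% and 11.7% in RIPK4.si. The lowest and the highest share both belonged to RIPK4.si libraries, replicates 1 and 2, and the neg.si values lay between them. The means were 11.6% ± 1.08 (SD, n = 3) in neg.si and 11.5% ± 1.88 (SD, n = 3) in RIPK4.si, a difference of -0.0187 percentage points that is far smaller than either SD. With each library left out in turn, this difference ranged from -0.93 to 0.95 percentage points, so single libraries set its sign. Counting error is small beside the spread between libraries, with 95% Wilson intervals, which cover counting error only, at most 0.0241 percentage points wide. In bulk RNA, fewer cells rich in mitochondria and less mitochondrial RNA per cell cannot be told apart. MT-CO1 was the most abundant gene in all 6 libraries. Of the 10 most abundant genes of a library, 5, 7 and 7 were mitochondrial in neg.si and 6, 7 and 7 in RIPK4.si.

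By class, mRNAs made up 92.3% to 94.2% of the mitochondrial counts, rRNAs 5.69% to 7.63% and tRNAs 0.0681% to 0.0924%. The mRNA share of a library was 10.5%, 11.9% and 10.1% in neg.si and 8.98%, 12.3% and 10.9% in RIPK4.si. For the rRNAs it was 0.634%, 0.858% and 0.672% in neg.si and 0.614%, 1.02% and 0.736% in RIPK4.si, again with the extremes in RIPK4.si replicates 1 and 2. Complex IV mRNAs, from 3 genes, held 6.40%, 6.60% and 5.36% of the counts in neg.si and 5.11%, 6.93% and 5.84% in RIPK4.si, more than the 7 complex I mRNAs in every library. Complex I mRNAs held 2.69%, 3.52% and 3.18% in neg.si and 2.71%, 3.58% and 3.44% in RIPK4.si. As a part of the mitochondrial mRNA counts, complex IV ranged from 53.2% in neg.si replicate 3 to 61.0% in neg.si replicate 1, both controls.

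**Figure D1:**
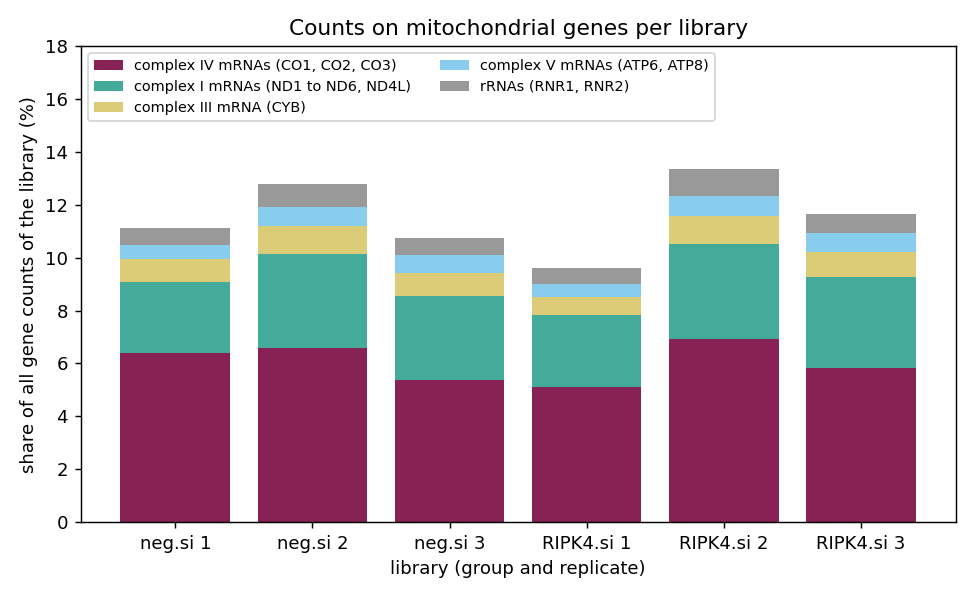
Share of all gene counts of each library, in percent, on mitochondrial mRNAs, stacked by respiratory complex, and on the 2 rRNAs, for 3 neg.si and 3 RIPK4.si libraries; the 2 tRNA genes, at most 0.0121%, are left out. RIPK4.si replicate 1 has the lowest bar and RIPK4.si replicate 2 the highest, where all 17 genes together took 9.61% and 13.4%.

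No difference between the groups was detected in any of the 16 tested mitochondrial genes. edgeR's quasi-likelihood test, adjusted by the Benjamini-Hochberg method, called 0 of 16 at an adjusted p under 0.05, against 0.767% of all 16297 genes tested. At an unadjusted p under 0.05 the count was 0 of 16, against 10.8% of all genes, and DESeq2 also called 0, against 2.78% of the 15490 genes to which it gave an adjusted p. In 0 of 16 genes did the libraries of the groups separate without overlap, against 17.6% of all genes. Of the 13 mRNAs, 8 had a log2 fold change above 0 and 5 below, with a median of 0.055 beside -0.023 over all genes tested. The 95% confidence intervals of 12 of the 13 mRNAs lay inside a 2-fold change in either direction, and those of 8 inside a 1.5-fold change.

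**Figure D2:**
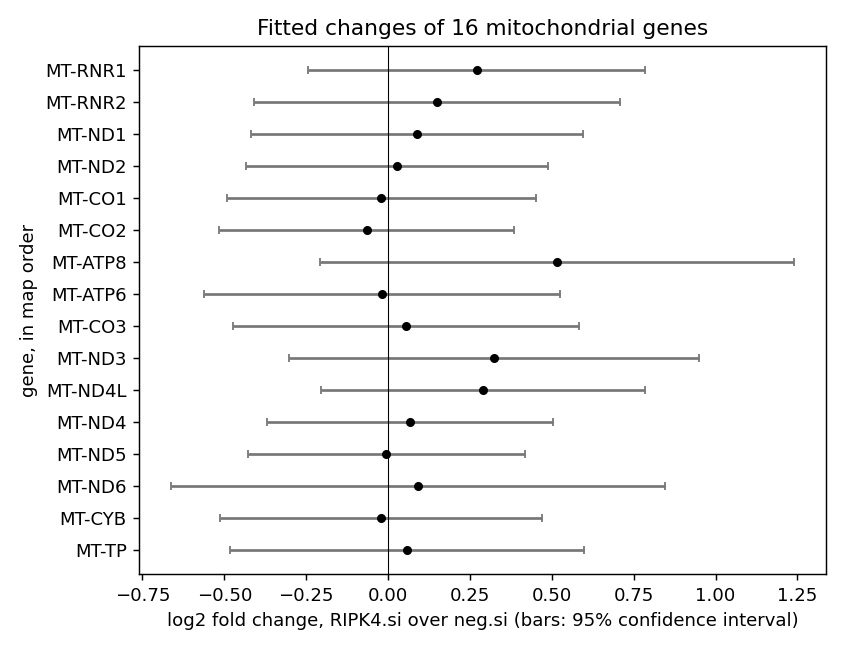
Fitted log2 fold change, RIPK4.si over neg.si, of the 16 tested mitochondrial genes in map order, with bars for the 95% confidence interval of edgeR's fit. Every interval includes 0, that of MT-ATP8 reaches highest, from -0.21 to 1.24, and that of MT-ND6 is the widest, from -0.66 to 0.85.

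Complex I passes electrons from NADH to ubiquinone, and 7 of its subunits are encoded here. The transcript of MT-ND1 (chrM:3307-4262), a membrane subunit beside the quinone site, stood at 1622, 1979 and 1358 CPM in neg.si and 1309, 2205 and 1760.0 CPM in RIPK4.si. MT-ND2 (chrM:4470-5511), a proton-pumping subunit, stood at 3409, 4842 and 4313 CPM in neg.si and 3362, 4856 and 4587 CPM in RIPK4.si. In both, RIPK4.si replicate 2 was highest and RIPK4.si replicate 1 lowest, so the neg.si values fell inside the RIPK4.si range. The log2 fold changes were 0.089 (standard error 0.225, 95% confidence interval -0.42 to 0.59, edgeR adjusted p = 0.959) for MT-ND1 and 0.028 (standard error 0.205, 95% confidence interval -0.43 to 0.49, edgeR adjusted p = 0.986) for MT-ND2. MT-ND4 (chrM:10760-12137), also a proton-pumping subunit, gave 16847, 20898 and 17177 CPM in neg.si and 15695, 21924 and 19886 CPM in RIPK4.si, with the same libraries at the extremes and a log2 fold change of 0.066 (standard error 0.194, 95% confidence interval -0.37 to 0.50, edgeR adjusted p = 0.964). MT-ND5 (chrM:12337-14148), the largest of these subunits, gave 2923, 4180.3 and 3899 CPM in neg.si and 3203, 3957 and 3804 CPM in RIPK4.si. Here both extremes were controls, neg.si replicate 2 at the top and neg.si replicate 1 at the bottom, and the log2 fold change was -0.0051 (standard error 0.188, 95% confidence interval -0.43 to 0.42, edgeR adjusted p = 0.997).

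The other 3 complex I genes are shorter. MT-ND3 (chrM:10059-10404), a small membrane subunit, had 1155, 1356 and 1146 CPM in neg.si and 910.4, 2171 and 1495 CPM in RIPK4.si. The neg.si libraries were close together, whereas RIPK4.si replicate 2 was far above and RIPK4.si replicate 1 below all of them. The coefficient of variation was 9.73% in neg.si and 41.3% in RIPK4.si, and the log2 fold change was 0.32 (standard error 0.278, 95% confidence interval -0.30 to 0.95, edgeR adjusted p = 0.806). MT-ND4L (chrM:10470-10766), another small membrane subunit, had 1258, 1893 and 1634 CPM in neg.si and 1529.6, 2425 and 1894 CPM in RIPK4.si. The lowest library was neg.si replicate 1 and the highest RIPK4.si replicate 2, with the others interleaved, and the log2 fold change was 0.29 (standard error 0.22, 95% confidence interval -0.21 to 0.78, edgeR adjusted p = 0.763). MT-ND6 (chrM:14149-14673, minus strand), the only mRNA gene on its strand, had 273, 598 and 535 CPM in neg.si and 299, 554 and 644 CPM in RIPK4.si. Replicate 1 of each group was low and the other 4 libraries were high, so the groups overlapped almost fully, and the log2 fold change was 0.091 (standard error 0.335, 95% confidence interval -0.66 to 0.85, edgeR adjusted p = 0.974).

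Complex III carries electrons from ubiquinol to cytochrome c, and MT-CYB (chrM:14747-15887), cytochrome b, is its only subunit encoded in the organelle. Its level was 8791, 10809 and 8179 CPM in neg.si and 6852, 11223 and 9283 CPM in RIPK4.si, or 9259 ± 1376 CPM in neg.si and 9119 ± 2190.0 CPM in RIPK4.si (mean ± SD, n = 3). RIPK4.si replicate 1 was lowest and RIPK4.si replicate 2 highest. The log2 fold change was -0.022 (standard error 0.218, 95% confidence interval -0.51 to 0.47, edgeR adjusted p = 0.989).

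Complex IV, cytochrome c oxidase, reduces oxygen, and its catalytic core is made of the products of MT-CO1, MT-CO2 and MT-CO3. MT-CO1 (chrM:5904-7445), the subunit with the oxygen-binding site, was at 32650.1, 34499 and 26651 CPM in neg.si and 24938, 37570.4 and 29979.7 CPM in RIPK4.si, or 31267 ± 4103 CPM in neg.si and 30829.5 ± 6359 CPM in RIPK4.si (mean ± SD, n = 3). MT-CO2 (chrM:7586-8269), which receives electrons from cytochrome c, was at 19539, 19603 and 15408 CPM in neg.si and 14538, 20832 and 16781 CPM in RIPK4.si. In both, neg.si replicates 1 and 2 and RIPK4.si replicate 2 were high and RIPK4.si replicate 1 was lowest. MT-CO3 (chrM:9207-9990), the remaining core subunit, was at 13282, 13047 and 8675 CPM in neg.si and 10055, 15309.9 and 10995 CPM in RIPK4.si, with neg.si replicate 3 lowest and RIPK4.si replicate 2 highest. The log2 fold changes were -0.02 (standard error 0.21, 95% confidence interval -0.49 to 0.45, edgeR adjusted p = 0.99) for MT-CO1, -0.065 (standard error 0.2, 95% confidence interval -0.52 to 0.39, edgeR adjusted p = 0.968) for MT-CO2 and 0.055 (standard error 0.235, 95% confidence interval -0.47 to 0.58, edgeR adjusted p = 0.976) for MT-CO3.

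Complex V, ATP synthase, takes its membrane subunits a and 8 from MT-ATP6 and MT-ATP8, whose overlap is printed above. MT-ATP6 (chrM:8527-9207) had 5430.2, 7250.3 and 6253 CPM in neg.si and 4194, 7861 and 6619.7 CPM in RIPK4.si, with RIPK4.si replicate 1 lowest, RIPK4.si replicate 2 highest and a log2 fold change of -0.02 (standard error 0.242, 95% confidence interval -0.56 to 0.52, edgeR adjusted p = 0.992). MT-ATP8 (chrM:8366-8572) had counts of 4875, 10800 and 5464 in neg.si and 7812, 12457 and 8952 in RIPK4.si, and levels of 157, 359.6 and 172 CPM in neg.si and 266.2, 431 and 288 CPM in RIPK4.si. Replicates 1 and 3 of neg.si were low, but neg.si replicate 2 exceeded RIPK4.si replicates 1 and 3, so the groups overlapped. Its log2 fold change was the highest of the 16, 0.52 (standard error 0.322, 95% confidence interval -0.21 to 1.24, edgeR adjusted p = 0.67). Without neg.si replicate 2 the log2 fold change of MT-ATP8 was 1.01 (edgeR adjusted p = 0.332), and without RIPK4.si replicate 2 it was 0.28 (edgeR adjusted p = 0.937). The coefficient of variation within neg.si was 49.1%, the highest among the 13 mRNAs in that group. Set against MT-ATP6, MT-ATP8 had 2.90, 4.96 and 2.75 counts per 100 in neg.si and 6.35, 5.49 and 4.35 in RIPK4.si, and the groups again overlapped. The same ratio of MT-ND4L to MT-ND4 was 7.47, 9.06 and 9.51 counts per 100 in neg.si and 9.75, 11.1 and 9.52 in RIPK4.si, every RIPK4.si value being higher than every neg.si value, though the nearest of them, 9.51 and 9.52, nearly coincide. No test was run on these ratios, which rest on counts that the overlaps make uncertain.

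The rRNA of the small ribosomal subunit, MT-RNR1 (chrM:648-1601), had 631, 752 and 508 CPM in neg.si and 624, 1009.9 and 647 CPM in RIPK4.si. The rRNA of the large subunit, MT-RNR2 (chrM:1671-3229), had 5857, 7973 and 5849 CPM in neg.si and 5334, 9847 and 6634 CPM in RIPK4.si. RIPK4.si replicate 2 stood above the other 5 libraries for both, and those 5 were interleaved. The log2 fold changes were 0.27 (standard error 0.229, 95% confidence interval -0.24 to 0.79, edgeR adjusted p = 0.8) for MT-RNR1 and 0.15 (standard error 0.248, 95% confidence interval -0.41 to 0.71, edgeR adjusted p = 0.925) for MT-RNR2. Per length, MT-RNR2 was 5.23 to 7.05 times MT-RNR1 in the libraries. These libraries were made with an mRNA kit, so rRNA counts are not a measure of total rRNA.

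The tRNA genes in the table were the 2 that border the long stretch without genes, which holds the control region. MT-TF (chrM:577-647, plus strand), for phenylalanine, follows 576 bases without a gene, and MT-TP (chrM:15956-16023, minus strand), for proline, is followed on the map by 546 such bases. The 20 other tRNA genes had at most 31 bases without a gene on either side. Both tRNA sequences are given on the gene's own strand, with the anticodon in capitals, to show how short these genes are beside a read of 100 bases.
MT-TP: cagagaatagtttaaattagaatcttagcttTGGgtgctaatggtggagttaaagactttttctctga
MT-TF: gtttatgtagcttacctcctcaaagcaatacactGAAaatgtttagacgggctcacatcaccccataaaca

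MT-TP had 3259, 2970 and 2200 counts in neg.si and 2220, 3716 and 2502 counts in RIPK4.si, or 105, 98.9 and 69.3 CPM in neg.si and 75.7, 129 and 80.4 CPM in RIPK4.si. RIPK4.si replicate 2 was highest and neg.si replicate 3 lowest, with the groups interleaved. Its log2 fold change was 0.059 (standard error 0.24, 95% confidence interval -0.48 to 0.60, edgeR adjusted p = 0.975). At 68 bases, MT-TP is shorter than an untrimmed read, and whether its counts come from the tRNA or from longer RNA across it was not tested.

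Ordered by mean level per length over the 6 libraries, MT-CO2 came first with 25999 CPM per kb, then MT-CO1 with 20135, MT-CO3 with 15171, MT-ND4 with 13598, MT-ATP6 with 9204, MT-CYB with 8054 and MT-ND4L with 5967 CPM per kb. MT-RNR2 followed with 4436, MT-ND2 with 4058, MT-ND3 with 3966, MT-ND5 with 2020.4, MT-ND1 with 1784, MT-TP with 1368, MT-ATP8 with 1348, MT-ND6 with 922 and MT-RNR1 with 729 CPM per kb. The libraries were selected for poly(A) RNA and counted without strand, so this order ranks counts and does not measure total RNA per gene. By the mean levels per length the mRNAs spanned 28.2 times from MT-CO2 to MT-ND6, but single libraries differed in this. The ratio was largest in neg.si replicate 1, at 55.0 times, and smallest in RIPK4.si replicate 3, where MT-CO2 had 24534 and MT-ND6 1227 CPM per kb. In neg.si replicate 3 the lowest mRNA was MT-ATP8, at 831 CPM per kb, and MT-ND6 had 1019. Of the 15 neighbouring pairs in this order, only MT-ND3 and MT-ND5 had ranges over the 6 libraries that did not overlap. Within libraries the order was firmer: MT-CO2 exceeded MT-CO1, and MT-CO1 exceeded MT-CO3, in 6 of 6 libraries, and the same held from MT-ND4 through MT-ATP6, MT-CYB and MT-ND4L to MT-RNR2. MT-CO3 and MT-ND4 kept their order in 4 of 6 libraries, MT-RNR2 and MT-ND2 in 4, MT-ND2 and MT-ND3 in 4, MT-ND5 and MT-ND1 in 4, MT-TP and MT-ATP8 in 2, and MT-ND6 and MT-RNR1 in 3, so these neighbours do not differ beyond their spread. MT-ND3 exceeded MT-ND5 and MT-ND1 exceeded MT-TP in 6 libraries, and MT-ATP8 exceeded MT-ND6 in 5.

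**Figure D3:**
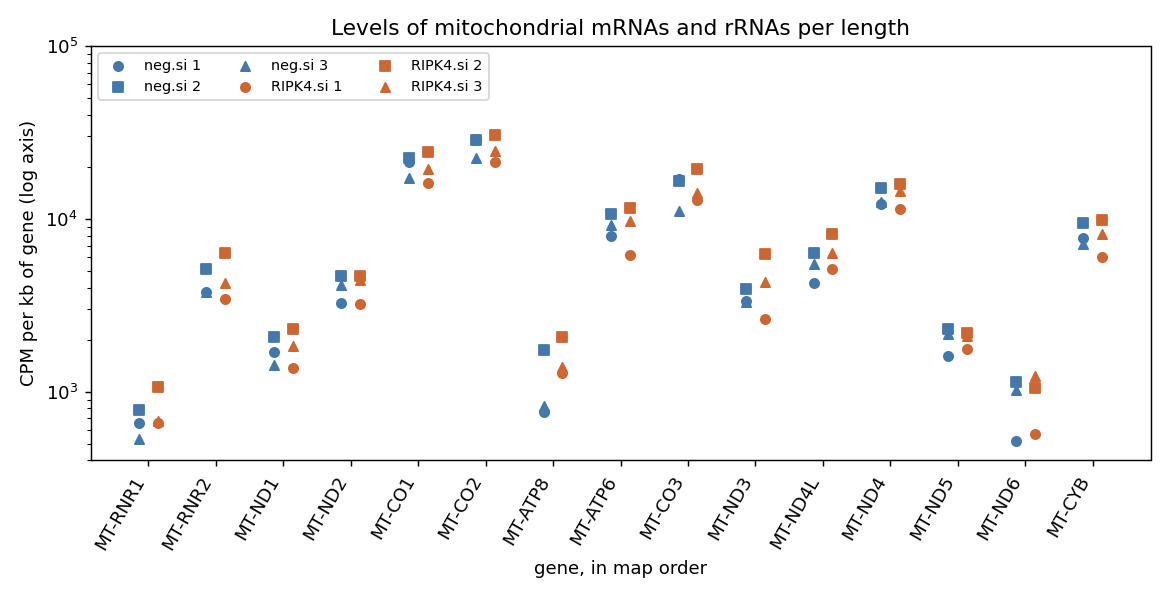
Level of each mitochondrial mRNA and rRNA in CPM per kb of gene, on a log axis, in map order, with a point for each of the 6 libraries (neg.si in blue, RIPK4.si in orange, a marker shape for each replicate number). The levels range from 519.6 CPM per kb, MT-ND6 in neg.si replicate 1, to 30456 CPM per kb, MT-CO2 in RIPK4.si replicate 2, and the groups overlap for every gene.

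Neighbours on the map had different counts per length. MT-ATP6 exceeded its overlapping neighbour MT-ATP8 by 4.79 to 11.1 times per length in the libraries, and by 4.0 to 9.23 times when each was divided by its unshared bases alone, 634 and 161. For MT-ND4 over MT-ND4L the ratio was 1.95 to 2.89 per length and 1.91 to 2.83 per unshared length. In both overlapping pairs, read pairs that reach into the neighbour cannot be assigned with certainty. Division by unshared bases does not correct for these read pairs, and whether the ratios reflect RNA levels was not tested. MT-ND5 and MT-ND6, adjacent genes on opposite strands, differed by 1.71 to 3.10 times.

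Libraries of the same group differed from each other across most of these genes at once. All 13 mRNAs were above their own mean over the 6 libraries in neg.si replicate 2 and in RIPK4.si replicate 2, whereas 10 were below it in neg.si replicate 1, 9 in neg.si replicate 3, 12 in RIPK4.si replicate 1 and 3 in RIPK4.si replicate 3. The median log2 deviation from that mean was -0.18, 0.20 and -0.15 in neg.si and -0.30, 0.31 and 0.097 in RIPK4.si. RIPK4.si replicate 1 was the lowest library for 8 of 13 mRNAs and RIPK4.si replicate 2 the highest for 11. The median coefficient of variation of the mRNAs was 17.3% in neg.si and 23.1% in RIPK4.si, beside 15.3% and 13.2% for the 486 other genes among the 500 most abundant. Single libraries set the direction of the group difference: without neg.si replicate 2, or without RIPK4.si replicate 1, all 13 mRNAs had a log2 fold change above 0, with medians of 0.16 and 0.20, and without RIPK4.si replicate 2, 10 of 13 were below 0, with a median of -0.065. These fits called 0, 0 and 4 genes in all, so their 0 mitochondrial calls say little about these genes. In them 1, 1 and 0 mitochondrial genes had an unadjusted p under 0.05.

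**Figure D4:**
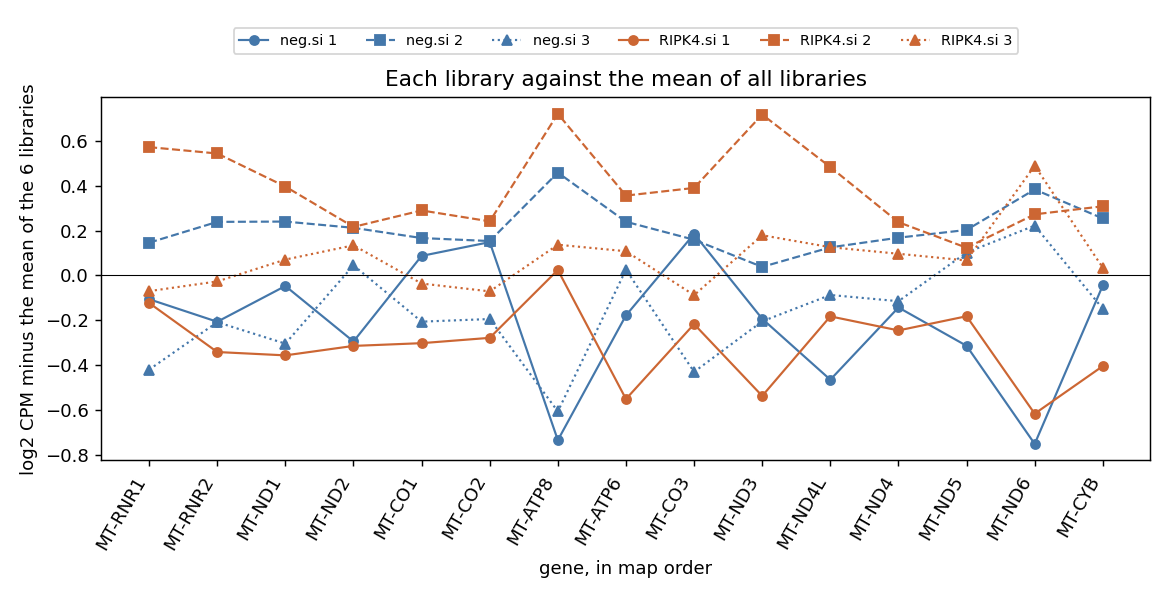
Log2 CPM of each mitochondrial mRNA and rRNA in each library minus the mean of the 6 libraries, in map order; lines join the genes of a library (neg.si in blue, RIPK4.si in orange). The squares, replicate 2 of each group, lie above 0 throughout, and RIPK4.si replicate 1 lies below 0 for all genes but MT-ATP8, at 0.024.

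Libraries also differed in how levels followed base composition. Across genes, the Spearman correlation of GC content with a gene's log2 deviation in a library was 0.555, 0.0815 and -0.547 in neg.si and -0.0525, 0.165 and -0.0788 in RIPK4.si. Genes are not independent replicates, and these values are descriptions. GC content ran from 39.6% to 47.7% among the mitochondrial mRNA genes, under the median of 47.9% of the table's genes. With each library's trend on GC content removed, an alternative added after seeing the data, edgeR called 533 genes in all in place of 125, and still 0 of the 16 mitochondrial genes, with 0 at an unadjusted p under 0.05, with a median over the mRNAs of 0.092 and 12 of 13 above 0.

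Copies of mitochondrial genes in the nuclear genome can take reads that belong to the organelle, or lend reads to it. The copies with the most counts lie in a block on chromosome 1, and the first of them is MTATP6P1. MTATP6P1, at chr1:633696-634376, differs from MT-ATP6 at 10 of 681 aligned bases, and of 582 windows of 100 bases in MT-ATP6, 69 were identical in the copy. MTATP6P1 had 32018, 30815 and 29003 counts in neg.si and 16521, 41241 and 36614 in RIPK4.si, which is 19.0, 14.2 and 14.6 per 100 counts of MT-ATP6 in neg.si and 13.4, 18.2 and 17.8 in RIPK4.si. Both extremes of its counts were RIPK4.si libraries, replicates 1 and 2, as for MT-ATP6. MTND2P28, with 17 differences in 1042 aligned bases, had 2.42 to 2.82 counts per 100 of MT-ND2, and MTCO1P12, with 21 in 1543, had 0.197 to 0.376 per 100 of MT-CO1. The next 5 copies by counts, MTCO3P12, MTCO2P12, MTND1P23, MTCO2P16 and MTATP6P16, had 151, 103, 75, 61 and 50 counts over all libraries. Reads of these copies and of the mitochondrial genes may not be separable, so both are uncertain. With the counts of the chromosome 1 copies added to the mitochondrial genes, the share of counts was 11.3%, 12.9% and 10.9% in neg.si and 9.68%, 13.5% and 11.8% in RIPK4.si, and edgeR called 0 of 16 genes, with 0 at an unadjusted p under 0.05.

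In the lists of nuclear genes that act on the mitochondrial genome, 0 genes were called. Over all genes edgeR called 0.767% and DESeq2 2.78%, and 10.8% had an unadjusted p under 0.05, so counts as small as those below are no results about the lists, and the values of single genes are descriptions. For transcription, 0 of 8 genes were called (edgeR; DESeq2 also 0), 1 had an unadjusted p under 0.05, and the median log2 fold change was -0.073. MTERF1, a factor that binds mitochondrial DNA and ends transcription, had 854, 816 and 1018 counts in neg.si and 638, 637 and 745 in RIPK4.si, all RIPK4.si libraries being lower, with a log2 fold change of -0.36 (unadjusted p = 0.0429, edgeR adjusted p = 0.434). TEFM, an elongation factor, had -0.17, POLRMT, the polymerase, 0.25 and TFAM, which packages the genome, 0.047. For replication and maintenance, 0 of 17 were called by either tool, 1 had an unadjusted p under 0.05, and the median was 0.057. PRIMPOL, a primase-polymerase, had 0.43 (unadjusted p = 0.0308, edgeR adjusted p = 0.377) and was higher in every RIPK4.si library than in any neg.si library. POLG, the catalytic subunit of the replicative polymerase, had 0.37, its partner POLG2 -0.30 and the nuclease EXOG -0.15.

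For RNA processing and decay, 0 of 21 genes were called by edgeR or DESeq2 (0.767% and 2.78% of all genes), 0 had an unadjusted p under 0.05 (10.8% of all genes) and the median log2 fold change was -0.051. ELAC2, which cuts tRNA 3′ ends, had 0.24, FASTK 0.26, PTCD1 -0.44 and GRSF1, an RNA-binding protein of mitochondrial RNA granules, -0.26. Of 18 translation and rRNA assembly genes, 16 were tested, 0 called by either tool and 1 had an unadjusted p under 0.05, with a median of -0.053. GFM1, an elongation factor, had -0.32 (unadjusted p = 0.0408, edgeR adjusted p = 0.426), all RIPK4.si libraries being lower. MRM1, an rRNA methyltransferase, had 0.63, TUFM, the elongation factor Tu, 0.15 and MTRF1L, a release factor, -0.23. Of the 8 regulators of mitochondrial biogenesis, 0 were called by either tool, 1 in each direction had an unadjusted p under 0.05, and the median was 0.14. PPARGC1B, a transcriptional coactivator, had 297, 294 and 366 counts in neg.si and 227, 112 and 210 in RIPK4.si, with a log2 fold change of -0.75 (unadjusted p = 0.0165, edgeR adjusted p = 0.294). GABPB2, a subunit of the GABP transcription factor, had 0.68 (unadjusted p = 0.0225, edgeR adjusted p = 0.336), NRF1 0.24 and PPARGC1A -0.37.

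The table also holds 78 nuclear genes of the respiratory chain, complex II included, of which 75 were tested. edgeR called 0 of 75 and DESeq2 0, against 0.767% and 2.78% of all genes, and 3 had an unadjusted p under 0.05, against 10.8% of all genes, with a median log2 fold change of -0.012. That count is no result about the list. The 3 genes, all lower in every RIPK4.si library than in any neg.si library, were SDHD at -0.62 (unadjusted p = 0.0195, edgeR adjusted p = 0.317), SDHC at -0.37 (unadjusted p = 0.0318, edgeR adjusted p = 0.383) and UQCR11 at -0.49 (unadjusted p = 0.0396, edgeR adjusted p = 0.421). SDHC and SDHD anchor complex II, which has no subunit encoded in the organelle, and UQCR11 belongs to complex III, whose mitochondrial subunit MT-CYB had a log2 fold change of -0.022. Among those above 0, NDUFA4L2 at 0.74, from 7 to 19 counts a library, and the complex I subunit NDUFB10 at 0.37 had the smallest p.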

How the data were processed

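According to the study's methods, poly(A) libraries were read in pairs, trimmed by cutadapt and mapped by TopHat on GRCh38.p13, and read pairs were assigned to genes while ignoring strand. The authors deposited these as raw counts, with no normalization. They also deposited a signal per gene, each count over a library size factor, which was not used. Columns of the authors' own comparison, fold, log2 fold change, standard error, p-value and FDR, were not used. Raw counts entered edgeR 4.0.16 (R 4.3.3), with TMM normalization, its filter on low counts, a quasi-likelihood test and Benjamini-Hochberg adjustment over 16297 genes, which were called at an adjusted p under 0.05. CPM are counts scaled by the TMM-normalized library size, and log2 fold changes are RIPK4.si over neg.si. DESeq2 1.42.0 was an alternative, with other normalizations and filters, the replicate number as a block, each library left out in turn and, added after seeing the data, a GC trend removed by lowess with span 0.3 and nuclear copies added. The procedure was tested on simulated data.

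Genes were named by rule: every mitochondrial gene, RIPK4, the 8 nuclear copies with the most counts and, from each list of nuclear genes for mitochondrial functions, up to 2 genes with the smallest p in each direction. All melanocyte and fibroblast markers were named, and of the keratinocyte, leukocyte and endothelial markers the one with the highest count in a library. UQCR11 and the fold changes of the melanocyte markers were added after their values were seen. The members and lists were chosen with earlier results of these data known. Gene positions, overlaps and sequences came from GENCODE 44 and GRCh38, read with Biopython 1.88. Further calculations used Python 3.11.15 with pandas 2.3.3, numpy 2.4.6 and matplotlib 3.10.9.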

Additional observations from a re-analysis of the deposited data

How the results depend on the processing

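Under 16 alternatives, edgeR or DESeq2 called 0 mitochondrial genes. The 16 genes gave 256 fitted values under these alternatives, 218 with the sign of the reported value and 38 with the opposite sign, the largest of which was 0.22 in size; adjusted p-values ran from 0.192 to 0.9998. MT-ND5, reported at -0.0051, became 0.0117 with DESeq2, 0.0117 with DESeq2's size factors in edgeR, 0.00203 with upper-quartile normalization, 0.000406 with TMM without mitochondrial genes and 0.011 with no filter. With the GC trend removed, MT-ND5 was 0.038, MT-CO1 0.019, MT-ATP6 0.026 and MT-CYB 0.022. The cause of these sign changes was not tested. With each library left out in turn, log2 fold changes ranged from -0.12 to 0.34 for MT-RNR2, -0.098 to 0.27 for MT-ND1, -0.083 to 0.18 for MT-ND2, -0.18 to 0.12 for MT-CO1, -0.21 to 0.060 for MT-CO2, -0.21 to 0.21 for MT-ATP6, -0.14 to 0.18 for MT-CO3, -0.0098 to 0.60 for MT-ND3, -0.032 to 0.20 for MT-ND4, -0.13 to 0.12 for MT-ND5, -0.17 to 0.37 for MT-ND6, -0.19 to 0.16 for MT-CYB and -0.22 to 0.21 for MT-TP. MT-RNR1, MT-ATP8 and MT-ND4L stayed above 0 in all. The median over the 13 mRNAs ranged from -0.065 to 0.20 and the difference in the share of counts from -0.93 to 0.95 percentage points. RIPK4 ranged from -2.06 to -1.74. The number of genes called over the whole table, 125 as reported, was 430 with DESeq2, 533 with the GC trend removed and 0 to 295 with a library left out. With the replicate block, 131 genes were called in all and 0 mitochondrial, and 1 mitochondrial gene had an unadjusted p under 0.05. There MT-ND5 was 0.0056 and the lowest mitochondrial adjusted p was 0.192, for MT-ATP8. Replicate numbers did not pair the libraries consistently: same-numbered deviations correlated at -0.242, 0.251 and 0.346 for numbers 1, 2 and 3. Of the 6 libraries, 3 correlated best with their own number. As to depth, the lowest count of an mRNA in a library was 4875, and MT-TF, with at most 4 counts in a library, was below the filter and not tested.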
